A study of Arabidopsis thaliana with 12 samples.

Results

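Plants without the receptors ERECTA (ER), ERL2 and the PXY family differed from plants lacking that family alone in 2016 of 19236 tested genes. The 3 libraries labelled pxf er erl2 were set against the 3 labelled pxf, so that 6 of the 12 libraries of the series enter the comparison. The pxf er erl2 plants carry pxy-3, pxl1-1 and pxl2-1 together with er-105 and erl2-1, and the pxf plants carry pxy-3, pxl1-1 and pxl2-1 alone, so loss of the PXY family is shared by both groups. The er erl2 plants (er-105 and erl2-1) and the wild type (Col-0) are used side by side, with 3 libraries each. All plants were 3 weeks old Arabidopsis thaliana grown in long days, and each sample was hypocotyl with the uppermost 5 mm of root, from which polyadenylated RNA was sequenced. The labels call the replicates biological and name no separate lines within a genotype; the seed came from laboratory stocks.

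The vascular cambium is the ring of dividing cells that thickens hypocotyls and roots, with xylem formed on its inner side and phloem on its outer side. PXY is a receptor kinase of the cambium that binds the peptide TDIF, made from CLE41 and CLE44 in the phloem. It promotes and orients cambial divisions, in part through the homeobox factor WOX4. ER and its relatives ERL1 and ERL2 are receptor kinases that bind EPFL peptides and are known for roles in stomatal patterning, stem growth and the vascular tissue. The comparison asks what the loss of ER and ERL2 adds where PXY signalling is already lost.

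Total counts were 12846307, 13333413 and 12012325 in pxf er erl2, against 14042451, 14716123 and 12893975 in pxf. On the 6 libraries, the first principal component (52.1% of the variance) separated the genotypes. The second (24.8%) set pxf er erl2 replicate 3 (score -36.4) and pxf replicate 2 (-25.8) apart from the other 4 (7.94 to 22.5). In those 2 libraries the summed level of 23 mitotic genes was lower (593 CPM, counts scaled to the size of the library, in pxf er erl2 replicate 3 and 639 in pxf replicate 2) than in the rest of their groups (794 and 803 in pxf er erl2, 777 and 797 in pxf). Other lists set them apart too. They were the lowest of their groups for photosynthesis genes (8391 and 8122 CPM) and the highest for jasmonate, wound and touch genes (5998 and 5058 CPM). Without both libraries 1773 genes changed, of which 1409 are among the 2016. In bulk tissue, fewer cells of a type and less RNA per cell cannot be told apart.

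Of the 2016 changed genes, 975 rose and 1041 fell. Genes are called changed at a Benjamini-Hochberg adjusted p under 0.05 in edgeR's quasi-likelihood test over all genes. The changed share is 10.5% of the genes tested, with 5.07% higher and 5.41% lower, and an unadjusted p under 0.05 was reached by 4861. The changes were mostly small, with a median absolute log2 fold change of 0.62. In 2001 of the changed genes the groups did not overlap, so lack of overlap adds little to a call. Over all tested genes 29.3% had no overlap. At least 2-fold changes were estimated for 571 of the called genes (317 higher, 254 lower), and at least 8-fold for 55. When the test asked whether a change exceeded 2-fold, 85 genes passed. Leaving out replicate 1 of pxf er erl2 reduced the changed genes to 1192, and leaving out replicate 1 or replicate 3 of pxf reduced them to 1206 or 1298.

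The ER locus was low in pxf er erl2, where its 3 libraries held 11.3, 8.97 and 7.70 CPM, against 62.1, 59.6 and 65.8 CPM in pxf. The groups did not overlap, and the log2 fold change was -2.74 ± 0.15 (SE here and below, n = 3 per group; edgeR adjusted p = 2.2e-07). ERL2 was too low to be tested, with 5 counts over the pxf er erl2 libraries and 14 over the pxf libraries. The PXY locus, mutated in both groups, was at 83.8, 75.6 and 72.6 CPM in pxf er erl2, against 20.7, 22.0 and 26.0 CPM in pxf. Every pxf er erl2 library lay above every pxf library (log2 1.76 ± 0.08, edgeR adjusted p = 1.1e-07), while er erl2 averaged 349 CPM and the wild type 249 CPM. Such counts come from anywhere along a mutated gene and do not show an intact transcript. The intact family member ERL1 had 9 counts in pxf er erl2 and 3 in pxf, a ratio of 3.29 (exact 95% interval 0.82 to 18.9, counting error only). Of those 9 counts 8 came from replicate 3, one of the libraries that stand apart, and the other libraries of pxf er erl2 held 0 and 1. In er erl2 ERL1 had 73 counts, against 1 in the wild type (edgeR adjusted p = 0.0017). PXL1 was not tested either, with 14 counts in pxf er erl2 and 37 in pxf, and PXL2 did not pass the test (log2 -0.78 ± 0.63, edgeR adjusted p = 0.49).

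None of the tested ligands, partners and MAP kinases of ERECTA signalling was called by edgeR (0 of 12, against 10.5% of all genes). Of these, 3 had an unadjusted p under 0.05 and DESeq2 called 1. The median log2 fold change of the 12 was -0.01, that of all tested genes -0.001. EPFL4, a peptide ligand of the ER family, had a log2 fold change of -1.09 (edgeR adjusted p = 0.11), and MPK3, a MAP kinase downstream of several receptors, 0.68 (edgeR adjusted p = 0.16). Of 18 genes of TDIF and PXY signalling, 1 was called (5.56%, against 10.5% of all genes), the brassinosteroid factor BES1, at log2 0.21. BES1 lost its call without pxf er erl2 replicate 1 or 2 or any single pxf library (adjusted p 0.070 to 0.17). WOX4, which carries the PXY signal to cell division, had a log2 fold change of -0.12 (edgeR adjusted p = 0.30), CLE41 -0.22 (0.16) and CLE44 -0.08 (0.62).

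Among 23 regulators of the cambium and meristems, 5 fell, against 5.41% of all genes, and the median log2 fold change of the list was -0.05. STM, a KNOX homeobox factor that maintains meristems, was at 26.9, 30.6 and 21.8 CPM in pxf er erl2, against 47.8, 46.7 and 56.5 CPM in pxf. All pxf er erl2 libraries lay below the lowest pxf library, and both groups were far below er erl2 (155 ± 7.6 CPM, SD) and the wild type (134 ± 14 CPM). The fold change was -0.93 ± 0.12 on the log2 scale (edgeR adjusted p = 0.00043). TMO5, a bHLH factor that with LHW drives vascular divisions, was at 19.7, 20.0 and 18.1 CPM in pxf er erl2, against 45.7, 39.1 and 44.8 CPM in pxf. The 3 pxf er erl2 values are tight and stand below all pxf values (log2 -1.17 ± 0.14, edgeR adjusted p = 0.00029). TMO5 averaged 35.5 ± 2.5 CPM (SD) in er erl2 and 43.1 ± 9.7 CPM in the wild type. PHV, an HD-ZIP III factor, was at 97.3, 96.4 and 116 CPM in pxf er erl2, against 129, 135 and 126 CPM in pxf (log2 -0.34 ± 0.07, edgeR adjusted p = 0.0089), again with no overlap. Of the other two called members, CNA, also HD-ZIP III (log2 -0.22), and T5L1, a TMO5 relative (log2 -0.58), CNA lost its call without replicate 2 or 3 of either genotype (adjusted p 0.066 to 0.11) and T5L1 without pxf er erl2 replicate 2 or 3 or pxf replicate 1 or 3 (0.088 to 0.13). The number of lower members was 3 without pxf er erl2 replicate 2 or 3 or pxf replicate 3.

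For STM, TMO5, CNA and T5L1 the log2 fold change with the er erl2 mutations differed between backgrounds. For STM the log2 fold change was -0.93 in the pxf background and 0.21 in the wild-type background (er erl2 against wild type), a difference of -1.13 ± 0.16 (edgeR interaction test, adjusted p = 0.0011). For TMO5 the difference was -0.89 (adjusted p = 0.016), with -0.28 in the wild-type background. Across the genome the interaction passed for 1818 genes (9.45%), and for 660 of the 2016 changed genes. The 2016 were called by a contrast that enters the interaction, so their share follows in part from that call. The interaction passed for 11 of the 23 cambium regulators. In er erl2 against wild type itself 18.8% of the tested genes changed, 10.3% higher and 8.44% lower. The number of genes with an interaction fell to 1119 without pxf replicate 1 and 1183 without pxf replicate 3.

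**Figure D1:**
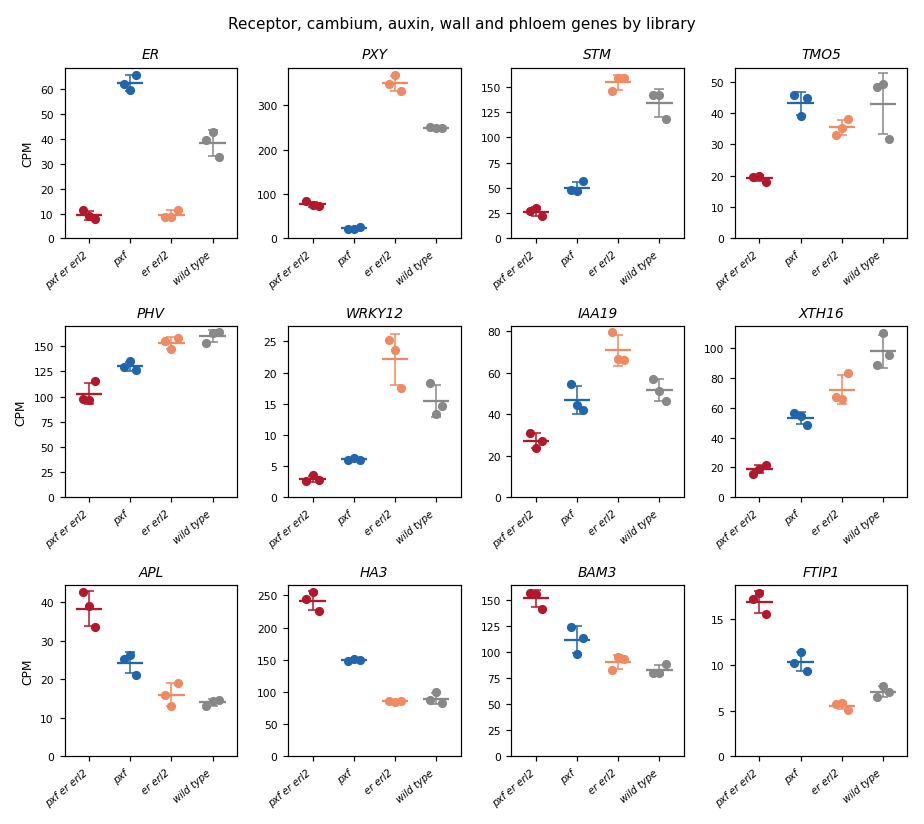
TMM-scaled CPM (vertical axis, from 0) of 12 genes in each library of pxf er erl2, pxf, er erl2 and the wild type; dots are libraries, horizontal bars means and error bars SD (n = 3). STM, TMO5, PHV, WRKY12, IAA19 and XTH16 are lowest in pxf er erl2, and the phloem genes APL, HA3, BAM3 and FTIP1 are highest there.

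Of 29 auxin genes, 7 fell and 1 rose, against 5.41% and 5.07% of all genes, with a median log2 fold change of -0.22. The interaction passed for 11 of the 29, against 9.45% of all genes. IAA19, an Aux/IAA repressor that auxin induces, was at 30.8, 23.9 and 27.3 CPM in pxf er erl2, against 54.7, 44.6 and 41.9 CPM in pxf. The groups did not overlap (log2 -0.78 ± 0.13, edgeR adjusted p = 0.0018). In the wild-type background IAA19 went the other way (log2 0.46), and the difference of -1.24 passed the interaction test (edgeR adjusted p = 0.00086). IAA14, the Aux/IAA that controls lateral root initiation, was scarce, with 0.62, 0.75 and 0.25 CPM in pxf er erl2, against 2.42, 1.79 and 2.15 CPM in pxf. It fell to a like extent in the wild-type background, with log2 -1.92 ± 0.38 in pxf er erl2 against pxf (edgeR adjusted p = 0.0066) and -1.95 in er erl2 against wild type. IAA5, IAA17, IAA30, PIN7 and LAX2 were the other lower members and GH3.6 the higher one, with log2 fold changes of -0.63, -0.56, -0.87, -0.31, -0.53 and 0.69. Each of these 6 lost its call when any of several single libraries was left out (adjusted p 0.051 to 0.13). The lower members numbered 3 without pxf er erl2 replicate 1 or 2, 2 without pxf replicate 1 or 3, and 5 and 6 without pxf replicate 2 and pxf er erl2 replicate 3. The higher call was absent without pxf er erl2 replicate 1 or 2 or pxf replicate 2 or 3, and 2 members were higher without pxf er erl2 replicate 3.

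Of 32 transcription factors of xylem and secondary walls, 2 fell (6.25%, against 5.41% of all genes), and of 40 wall, lignin and cell death genes, 3 rose (7.5%, against 5.07%), shares near those of all genes. WRKY12, which represses secondary wall formation in pith, was at 2.57, 3.54 and 2.79 CPM in pxf er erl2, against 6.06, 6.34 and 5.99 CPM in pxf. These ranges are well apart (log2 -1.04 ± 0.20, edgeR adjusted p = 0.0049), and er erl2 held 22.2 ± 4.1 CPM (SD) and the wild type 15.5 ± 2.6 CPM. The change of WRKY12 in the wild-type background was 0.52, and the difference of -1.56 passed the interaction test (edgeR adjusted p = 0.0019). PAL4, a phenylalanine ammonia lyase at the entry to phenylpropanoids, was at 35.9, 31.6 and 35.3 CPM in pxf er erl2, against 16.5, 15.5 and 15.6 CPM in pxf. The pxf er erl2 libraries were all about the same and all higher (log2 1.11 ± 0.20, edgeR adjusted p = 0.0047). The other calls were VND5 (log2 -0.54), a NAC factor of vessel fate, LAC17 (0.43), a lignin laccase, and 4CL1 (0.40), a ligase of lignin precursors. Leaving out replicate 3 of pxf er erl2 ended these calls (adjusted p 0.12, 0.11 and 0.071), as did leaving out replicate 1 (0.16, 0.13 and 0.11) or replicate 3 (0.10, 0.085 and 0.086) of pxf. VND5 and LAC17 also lost theirs without pxf er erl2 replicate 2 (0.11 and 0.072) or pxf replicate 2 (0.079 and 0.078). The cellulose synthases of the secondary wall, CESA4, CESA7 and CESA8, had log2 fold changes of 0.13, 0.20 and 0.06 and did not pass the test (edgeR adjusted p 0.60 to 0.90).

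Of 22 phloem genes tested, 5 rose, against 5.07% of all genes, and the median log2 fold change of the list was 0.24. HA3, a proton pump of companion cells, was at 245, 255 and 225 CPM in pxf er erl2, against 148, 151 and 149 CPM in pxf. The groups are wide apart (log2 0.69 ± 0.07, edgeR adjusted p = 4.0e-05). FTIP1, which helps the florigen FT pass from companion cells into sieve elements, was at 17.2, 17.9 and 15.6 CPM in pxf er erl2, against 10.2, 11.4 and 9.37 CPM in pxf. Its log2 fold change was 0.71 ± 0.11 (edgeR adjusted p = 0.0017), again without overlap. APL, a MYB factor of phloem identity, was at 42.6, 38.9 and 33.5 CPM in pxf er erl2, against 25.4, 26.3 and 21.2 CPM in pxf (log2 0.66 ± 0.13, edgeR adjusted p = 0.0064). In APL too the lowest pxf er erl2 library exceeded the highest pxf library. BAM3, a receptor of CLE45 in sieve element precursors, rose by 0.44 ± 0.09 on the log2 scale (edgeR adjusted p = 0.0061). PP2-A1, a phloem lectin, rose by 0.37 ± 0.06 (edgeR adjusted p = 0.0030).

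The 5 phloem genes kept their calls when any of the 6 libraries was left out, and 7 phloem genes were higher without pxf er erl2 replicate 3. Some well-known phloem genes did not pass, among them the sucrose carrier SUC2 (log2 0.61, edgeR adjusted p = 0.16), NAC045 (0.73, 0.12) and SEOR1 (0.30, 0.17). In er erl2 against wild type HA3 had a log2 fold change of -0.07, FTIP1 -0.36 and PP2-A1 -0.22, and the differences from the pxf background (0.77, 1.07 and 0.59) passed the interaction test (edgeR adjusted p = 0.00029, 0.0021 and 0.0017). The interaction did not pass for APL and BAM3. The summed level of the phloem list was 2619, 2604 and 2180 CPM in pxf er erl2, against 2250, 2072 and 2217 CPM in pxf and 1301 to 1428 CPM in the wild type. In this sum pxf er erl2 replicate 3 fell within the range of pxf.

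Cell division genes gave few calls in pxf er erl2 against pxf, at shares near those of all genes. Of 23 mitotic genes, 1 fell (4.35%, against 5.41% of all genes), the B-type cyclin CYCB2;2 (log2 -0.32). Its call was lost without any single one of the 6 libraries (edgeR adjusted p 0.073 to 0.14). Of 13 replication genes, 1 fell (7.69%, against 5.41%). This was the licensing factor CDT1A, at 6.24, 8.75 and 8.37 CPM in pxf er erl2, against 12.6, 11.1 and 11.8 CPM in pxf. Its groups did not overlap (log2 -0.60 ± 0.16, edgeR adjusted p = 0.028), but the call was lost without pxf er erl2 replicate 1, pxf replicate 1 or pxf replicate 3 (adjusted p 0.072 to 0.11). The replication list had a median log2 fold change of -0.16, with CDC6 the only positive member, at 0.10. Without pxf er erl2 replicate 3 the lower members numbered 4. In er erl2 against wild type 5 of the 13 replication genes rose, against 10.3% of all genes, and 0 fell. The interaction passed for 7 of these 13, against 9.45% of all genes, and for 0 of the 23 mitotic genes in edgeR.

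**Figure D2:**
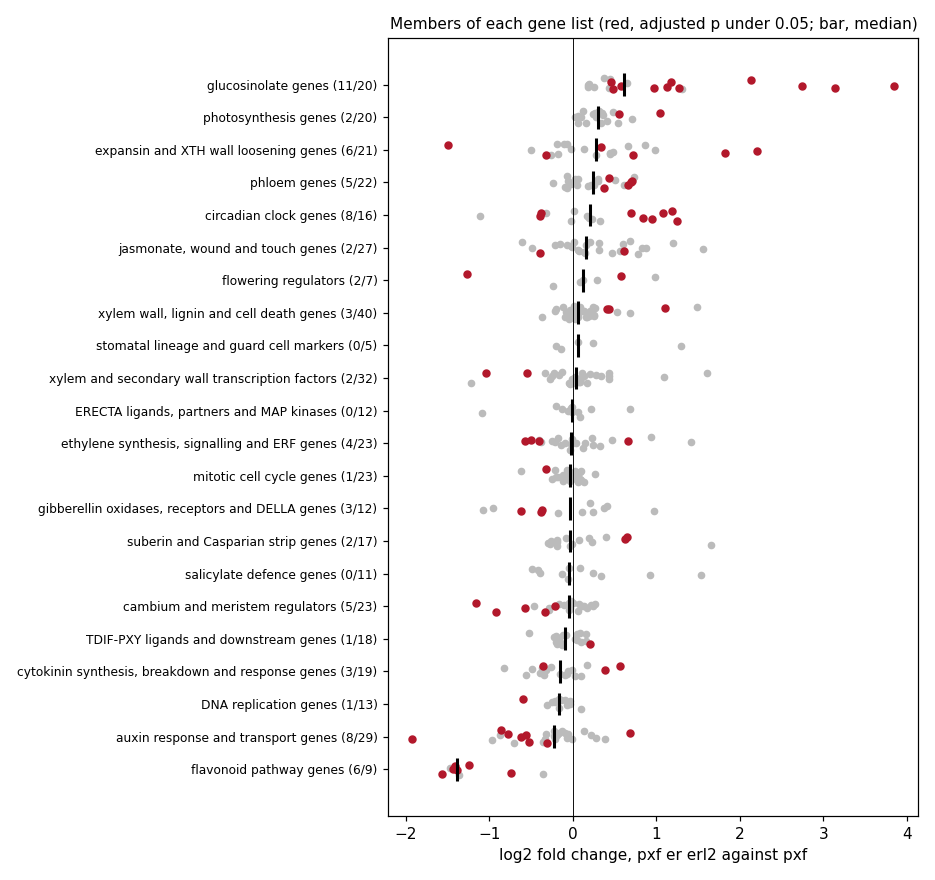
Log2 fold change of pxf er erl2 against pxf (horizontal axis) for every tested member of 22 gene lists, ordered by their medians (black bars); red dots have an adjusted p under 0.05 and the numbers give changed over tested members. Glucosinolate genes stand at the high end (median 0.61), flavonoid genes at the low end (-1.39).

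Other hormone lists held few calls that withstood leaving out a library. Of 23 ethylene genes tested, 3 fell, against 5.41% of all genes. ACO1, an ACC oxidase of ethylene synthesis, fell by 0.50 on the log2 scale (edgeR adjusted p = 0.033). The receptor ETR2 fell by 0.57 and the F-box protein EBF2 by 0.41 (edgeR adjusted p = 0.016 and 0.043). None of these 3 was called without pxf replicate 1 (adjusted p 0.054 to 0.10). ACO1 was also lost without pxf er erl2 replicate 1 or 2 or pxf replicate 2, ETR2 without pxf er erl2 replicate 2, and EBF2 without any single library except pxf er erl2 replicate 2 (0.054 to 0.14). Of 19 cytokinin genes tested, 2 rose and 1 fell (15.8% changed, against 10.5% of all genes). WOL, a cytokinin receptor, was at 181, 188 and 166 CPM in pxf er erl2, against 138, 133 and 139 CPM in pxf (log2 0.38 ± 0.07, edgeR adjusted p = 0.0025). Of the other two cytokinin calls, IPT3, a cytokinin synthase (0.57), was lost without pxf er erl2 replicate 1 or 2 or any pxf library and ARR7, a response regulator (-0.36), without all but pxf replicate 2. RGL1, a DELLA repressor of gibberellin responses, fell by 0.37 ± 0.07 on the log2 scale (edgeR adjusted p = 0.0060). GAI, another DELLA (-0.62), lost its call without pxf er erl2 replicate 1 or pxf replicate 3, and the gibberellin receptor GID1A (-0.38) without pxf er erl2 replicate 1 or 2 or pxf replicate 1 or 2 (adjusted p 0.054 to 0.074 for both). Of the 12 gibberellin genes tested 3 thus fell (25%, against 5.41% of all genes), and 1 fell without pxf er erl2 replicate 1.

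Genes of wall loosening and suberin changed singly. XTH16, a xyloglucan endotransglucosylase of the cell wall, was at 15.9, 19.2 and 21.6 CPM in pxf er erl2, against 56.7, 54.4 and 48.8 CPM in pxf. It lay well below pxf in every pxf er erl2 library (log2 -1.50 ± 0.13, edgeR adjusted p = 1.9e-05), and the difference of -1.05 from the wild-type background, where its log2 fold change was -0.44, passed the interaction test (edgeR adjusted p = 0.0026). The expansins EXPA8 (log2 2.2 ± 0.43, edgeR adjusted p = 0.0060) and EXPA4 (-0.32 ± 0.06, edgeR adjusted p = 0.0047) went in opposite directions. In all, 4 of 21 expansin and XTH genes were higher (with EXPA14, XTH23 and XTH27) and 2 lower, against 5.07% and 5.41% of all genes. The higher ones numbered 1 without pxf er erl2 replicate 1 and 2 without pxf replicate 3. Of 17 suberin and Casparian strip genes, which mark periderm and endodermis, 2 rose (11.8%, against 5.07% of all genes). They were FAR1, which makes fatty alcohols of suberin (log2 0.65 ± 0.14, edgeR adjusted p = 0.0099), and KCS20, which elongates fatty acids (0.63 ± 0.07, edgeR adjusted p = 0.00019). The summed level of that list was 363 to 492 CPM in pxf er erl2 and 382 to 535 CPM in pxf, so the groups overlapped.

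Glucosinolate genes rose, 11 of 20, against 5.07% of all genes, with all 20 estimates positive and a median log2 fold change of 0.61. Glucosinolates are sulphur-rich defence compounds, here mainly those made from methionine. MYB29, a regulator of the methionine-derived branch, was at 3.74, 5.13 and 1.95 CPM in pxf er erl2, against 0.50, 0.48 and 0.61 CPM in pxf. The pxf er erl2 libraries spread widely, yet the lowest was above all pxf libraries (log2 2.75 ± 0.42, edgeR adjusted p = 0.0012). BCAT4, an aminotransferase that starts chain elongation of methionine, was at 124, 128 and 102 CPM in pxf er erl2, against 64.8, 54.3 and 61.8 CPM in pxf (log2 0.97 ± 0.12, edgeR adjusted p = 0.00028). MAM1, which carries out chain elongation, was at 85.0, 98.7 and 49.3 CPM in pxf er erl2, against 34.6, 27.6 and 34.7 CPM in pxf. The pxf er erl2 libraries of MAM1 spanned a wide range above those of pxf (log2 1.27 ± 0.24, edgeR adjusted p = 0.0082), with replicate 3 the lowest.

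CYP79F1, which converts the elongated amino acids, was at 43.0, 56.3 and 21.3 CPM in pxf er erl2, against 4.70, 4.48 and 4.53 CPM in pxf. It was high in every pxf er erl2 library and nearly constant in pxf (log2 3.14 ± 0.37, edgeR adjusted p = 0.00055). Its neighbour CYP79F2 rose by 2.13 ± 0.21 (edgeR adjusted p = 4.3e-05) and the MAM1 neighbour MAM3, listed as IMS2, by 3.85 ± 0.47 (edgeR adjusted p = 0.00035); how counting divided reads between such similar genes is not given, so their single values are uncertain. FMO GS-OX1 (1.13), SOT18 (0.58), SUR1 (0.48) and CYP81F2, of the tryptophan-derived branch (1.17), also rose. SOT17 (0.46) lost its call without pxf er erl2 replicate 2 or pxf replicate 2 or 3. Leaving out 1 library gave 10 to 13 higher members, and leaving out both libraries that stand apart gave 9. MYB28, another regulator of this branch, had a log2 fold change of 0.26 and did not pass (edgeR adjusted p = 0.27). In er erl2 against wild type CYP79F1 had a log2 fold change of 6.77, MYB29 2.93, BCAT4 3.90 and MAM3 -0.13. The interaction passed for 8 of the 20.

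Flavonoid genes were lower in pxf er erl2, with 6 of 9 tested falling against 5.41% of all genes. All 9 estimates were negative, with a median log2 fold change of -1.39. TT8, a bHLH regulator of the late steps, was at 6.55, 8.82 and 5.67 CPM in pxf er erl2, against 16.4, 22.2 and 17.5 CPM in pxf. Its groups are apart (log2 -1.41 ± 0.21, edgeR adjusted p = 0.0011). UF3GT, which adds sugar to anthocyanins, was at 25.6, 37.8 and 24.9 CPM in pxf er erl2, against 66.6, 103 and 69.9 CPM in pxf (log2 -1.44 ± 0.24, edgeR adjusted p = 0.0045). TT7, a flavonoid hydroxylase, was at 21.5, 34.8 and 22.1 CPM in pxf er erl2, against 51.0, 82.5 and 52.2 CPM in pxf (log2 -1.24 ± 0.25, edgeR adjusted p = 0.0099). In all 3 genes replicate 2 was the highest of its group in either genotype. The reductase DFR (-1.57), the dioxygenase LDOX (-1.39) and the isomerase TT5 (-0.75) were the other lower genes, and DFR lost its call without any single library except pxf er erl2 replicate 2 (adjusted p 0.055 to 0.085). LDOX was lost without pxf er erl2 replicate 1 or 3 or pxf replicate 2, and TT5 without pxf er erl2 replicate 1 or pxf replicate 2 or 3, so that 3 members were called when replicate 1 of pxf er erl2, replicate 2 of pxf or both libraries that stand apart were left out. Leaving out replicate 3 of either genotype gave 4. The summed flavonoid level was 364, 523 and 320 CPM in pxf er erl2, against 891, 1342 and 909 CPM in pxf, while the wild type held 125 to 218 CPM. In er erl2 against wild type 1 member, TT8, fell (log2 -1.21), and the interaction passed for 0 of the 9 in edgeR.

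Of 16 circadian clock genes, 6 rose and 2 fell, against 5.07% and 5.41% of all genes. CCA1, a morning-phased MYB factor at the core of the clock, was at 26.1, 26.2 and 20.6 CPM in pxf er erl2, against 9.69, 9.57 and 11.4 CPM in pxf. The lowest pxf er erl2 library was well above the highest pxf library (log2 1.25 ± 0.15, edgeR adjusted p = 0.00019). RVE8, a relative of CCA1, rose by 1.08 ± 0.20 on the log2 scale (edgeR adjusted p = 0.0047). The evening genes TOC1, a repressor of CCA1, and LUX, of the evening complex, fell by 0.39 ± 0.06 (edgeR adjusted p = 0.0019) and 0.39 ± 0.08 (edgeR adjusted p = 0.010). The other higher genes, PRR9 (1.19), LNK2 (0.94), CDF1 (0.84) and RVE1 (0.69), each lost their call without pxf er erl2 replicate 1 and without pxf replicate 1 or 2 (adjusted p 0.062 to 0.19), and the higher members then numbered 2 in each case, or 3 without pxf er erl2 replicate 2 and 4 without pxf replicate 3.

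The 20 photosynthesis genes, markers of green tissue, all had positive estimates, with a median log2 fold change of 0.30. Of them 2 rose (10%, against 5.07% of all genes). These were LHCB1.1 of the light-harvesting complex (1.04 ± 0.20, edgeR adjusted p = 0.0095) and RCA (0.55), which lost its call without replicate 1 or 2 of either genotype. The summed level of the 20 was 11886, 13239 and 8391 CPM in pxf er erl2, against 8632, 8122 and 10740 CPM in pxf and 2702 to 3753 CPM in the wild type. The groups overlapped, and without pxf er erl2 replicate 3 the higher members numbered 6. In er erl2 against wild type 17 of the 20 rose, against 10.3% of all genes, with a median log2 fold change of 0.90. The interaction passed for 7 of the 20, against 9.45% of all genes. The part of green tissue in the other results was not tested. Of 27 jasmonate, wound and touch genes, VSP1 rose (0.61) and TCH2 fell (-0.39), which is 7.41% changed, against 10.5% of all genes. Neither was called without pxf replicate 1 or without pxf er erl2 replicate 2 (adjusted p 0.058 to 0.11). Salicylate defence genes gave 0 calls of 11 in edgeR and in DESeq2, with 2 at an unadjusted p under 0.05. Stomatal lineage genes (5 tested) and root epidermis markers (2 tested) gave 0 calls in edgeR, in DESeq2 and at an unadjusted p under 0.05. Of 7 flowering regulators, FLC, a repressor of flowering, fell (log2 -1.27) and AGL24 rose (0.58), which is 28.6% changed, against 10.5% of all genes. FLC lost its call without pxf replicate 2 or 3 (adjusted p 0.053 and 0.059) and AGL24 without every library except pxf er erl2 replicate 3.

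**Figure D3:**
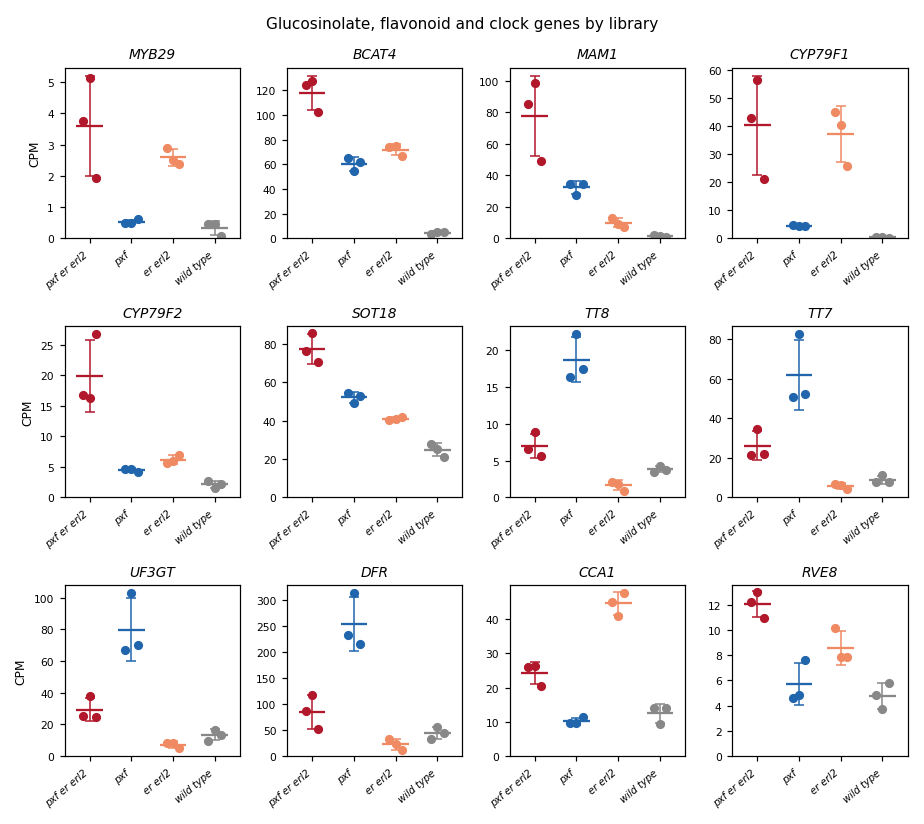
TMM-scaled CPM (vertical axis, from 0) of 12 glucosinolate, flavonoid and clock genes in each library of pxf er erl2, pxf, er erl2 and the wild type; dots are libraries, horizontal bars means and error bars SD (n = 3). MYB29, CYP79F1 and CCA1 are higher in pxf er erl2 than in pxf, and TT8, TT7, UF3GT and DFR are highest in pxf.

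Among genes with a symbol that lie outside the runs of neighbouring changes described below, SBT4.12, a subtilase protease, was one of the largest rises. It was at 57.6, 45.7 and 40.5 CPM in pxf er erl2, against 7.48, 5.37 and 5.53 CPM in pxf. No library of the groups came near the other (log2 2.97 ± 0.18, edgeR adjusted p = 6.6e-07). In er erl2 against wild type it fell by 0.84 on the log2 scale, and the difference of 3.81 passed the interaction test (edgeR adjusted p = 1.3e-06). PME2, a pectin methylesterase, was at 2.26, 3.39 and 1.86 CPM in pxf er erl2, against 0.14, 0.28 and 0.15 CPM in pxf (log2 3.64 ± 0.46, edgeR adjusted p = 0.00029). CLE6, which encodes a small signalling peptide, was at 7.49, 6.11 and 2.71 CPM in pxf er erl2, against 0.64, 0.07 and 0.84 CPM in pxf (log2 3.40 ± 0.56, edgeR adjusted p = 0.0020). In CLE6 both groups varied widely, and er erl2 and the wild type were near 0.03 CPM. Lack of overlap was required of every gene in this set. BOR5, of the borate transporter family (2.97), BGLU27, a beta-glucosidase (3.58), HMT3, a homocysteine methyltransferase (3.91), and the heat stress factor HSFA2 (2.96) completed the set with MAM3, CYP79F1 and HISN6B, a histidine synthesis enzyme (5.64). HISN6B, whose near-identical copy HISN6A may share its reads, lost its call without any single one of the 6 libraries (adjusted p 0.079 to 0.13) and HSFA2 without any except pxf er erl2 replicate 3 (0.052 to 0.12). HISN6B was at 4.29, 4.98 and 6.68 CPM in pxf er erl2 and at 0.285, 0 and 0 CPM in pxf. The wild-type libraries, which share the fit, spread widely, at 0, 0.09 and 6.11 CPM.

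The largest falls of the same kind, beside ER, were led by TFL1, which keeps shoot meristems indeterminate. TFL1 was at 0.39, 0.38 and 0.76 CPM in pxf er erl2, against 11.3, 8.20 and 11.2 CPM in pxf. It was near 0 in every pxf er erl2 library (log2 -4.32 ± 0.29, edgeR adjusted p = 1.2e-06), and also in er erl2 (0.06 CPM, against 6.38 CPM in the wild type). CYP707A2, which breaks down abscisic acid, was at 0.23, 0.30 and 0 CPM in pxf er erl2, against 2.78, 1.93 and 1.54 CPM in pxf (log2 -3.43 ± 0.48, edgeR adjusted p = 0.00071). GSTF5, a glutathione transferase, was at 3.43, 4.75 and 2.79 CPM in pxf er erl2, against 22.7, 35.1 and 28.0 CPM in pxf (log2 -2.96 ± 0.34, edgeR adjusted p = 0.00029). All pxf libraries of GSTF5 were far above all pxf er erl2 libraries, and the wild type was at 3.98 CPM. PEP7 (-3.76), AT7SL-1, an RNA of the signal recognition particle (-2.62), PAB6 (-2.48), the sulphate transporter SULTR3;2 (-2.46), the iron superoxide dismutase FSD1 (-2.46) and FAF2 (-2.44) were the others. FSD1 lost its call without pxf er erl2 replicate 1 (adjusted p 0.052).

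Among changed genes of at least 1 CPM without overlap, 17 of the 20 largest rises and falls were on chromosome 4 or 5. Of these 20, 8 had no count in 1 group. AT4G19240 had 36.7, 42.3 and 34.6 CPM in pxf er erl2 and no count in any pxf library, which makes it at least 527-fold higher (against 3 counts over the group; edgeR adjusted p = 1.8e-07). AT4G15242 was likewise at least 313-fold higher, and AT4G10220 at least 33.3-fold. In the opposite direction AT4G14905 had no count in pxf er erl2, against 28.2, 28.7 and 27.7 CPM in pxf, which is at least 356-fold lower (edgeR adjusted p = 1.6e-08). The pxf er erl2 libraries also held no read of AT5G05400, AT4G07455, AT4G01593 or AT4G01740, which makes these genes at least 149-, 145-, 126- and 116-fold lower there. All 8 of these genes were at or near 0 in er erl2 or in the wild type in the matching direction. AT4G14905, for example, was at 0.03 CPM in er erl2 and 29.5 CPM in the wild type.

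Strong changes were gathered in parts of 2 chromosomes. Of the 55 genes changed at least 8-fold, 21 lay in 3 runs of neighbouring genes on chromosome 4 that hold 2.00% of the tested genes. A run was defined as overlapping windows of 100 tested genes with at least 5 such changes, trimmed to the first and last of them. The runs were thus drawn from these same genes. Their share of the strong changes, and in part the percentages below, follow from that definition. The runs spanned AT4G08990 to AT4G11780 (40 of 164 tested genes changed, 24.4%), AT4G12890 to AT4G14380 (43 of 125, 34.4%) and AT4G14905 to AT4G15975 (29 of 96, 30.2%). With windows of 50 genes 1 run remained, and with a limit of 4-fold there were 5. In wider terms, with limits set after seeing the data, chromosome 4 before AT4G20000 held 28 of the 55 and 19.7% of its genes changed, against 9.28% on the rest of that chromosome. Chromosome 5 before AT5G12000 held 8 of the 55 with 16.3% changed, against 9.19% on the rest, and chromosomes 1 to 3 held 14 with 9.59% changed.

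ERL2 lies within the upper part of chromosome 5, as do MYB29, FTIP1, TFL1, PEP7, FLC and TT7 among the called genes named above. TT8, IAA14, PP2-A1, SULTR3;2 and AT7SL-1 lie in the upper part of chromosome 4, which holds none of the mutated receptor genes. There are 29 tested genes between MYB29 and ERL2, and 8 between TOC1 and PXY. Among the 100 tested genes nearest to ERL2, 50 on either side, 13 changed, and 7 and 5 of those nearest to ER and PXY. Over all genes the share was 10.5%, and on chromosome 5 before AT5G12000 it was 16.3%. None of these neighbours changed 8-fold in edgeR's estimates. Of the 28 strongly changed genes of upper chromosome 4, 27 were also called in er erl2 against wild type in the same direction, as were 7 of the 8 of upper chromosome 5, against 4 of the 14 on chromosomes 1 to 3. Whether such differences come with the er-105 and erl2-1 alleles' function or with other sequence carried by the lines cannot be told apart in this design, with no separate lines within a genotype named.

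**Figure D4:**
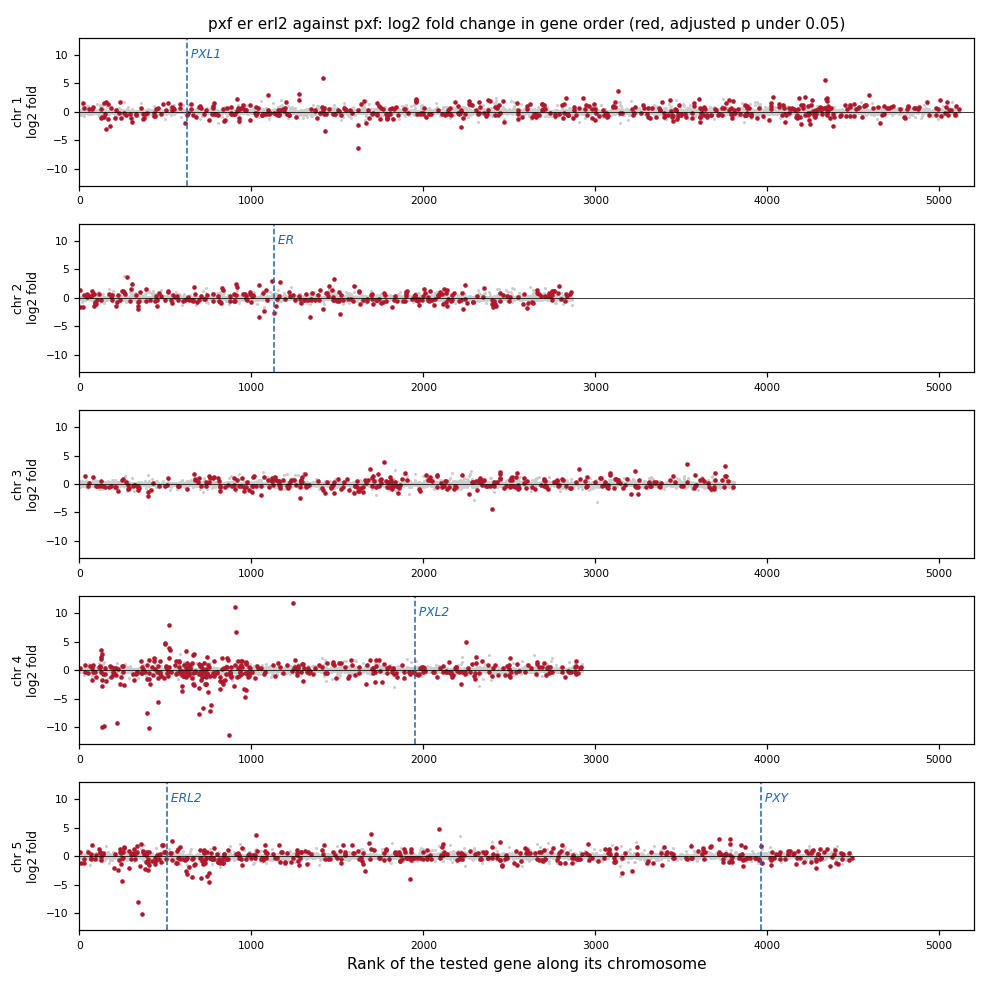
Log2 fold change of pxf er erl2 against pxf (vertical axes) by rank of the tested gene along each chromosome (horizontal axes); red dots have an adjusted p under 0.05 and dashed lines mark the mutated receptor genes. Red dots beyond 3 in either direction crowd the first part of chromosome 4, where 28 of the 55 such genes lie; values of genes with no counts in 1 group depend on the fit's prior count.

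The same loss of ER and ERL2 in the wild-type background uses other libraries throughout, so its values can be set beside those above. In er erl2 against wild type 3607 genes changed. Of the 2016 genes changed in the pxf background, 711 were called there too, 598 of them in the same direction. On chromosomes 1 to 3, away from the dense parts, 265 of 331 shared calls (80.1%) had the same direction, against 139 of 144 (96.5%) on upper chromosome 4 and 74 of 78 (94.9%) on upper chromosome 5. The rest of chromosome 4 had 33 of 36 (91.7%) and the rest of chromosome 5 had 86 of 121 (71.1%). Of the genes described above, ER, PAL4, CCA1, BCAT4, CYP79F1, IAA14 and TFL1 changed in the same direction in both backgrounds, whereas IAA19, WRKY12, SBT4.12, PP2-A1, CNA, VND5 and LAX2 passed in both with opposite signs. STM, TMO5, HA3, FTIP1, CLE6 and PME2 passed in the pxf background but not in the wild-type background, and of these the interaction passed for STM, TMO5, HA3 and FTIP1.

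**Figure D5:**
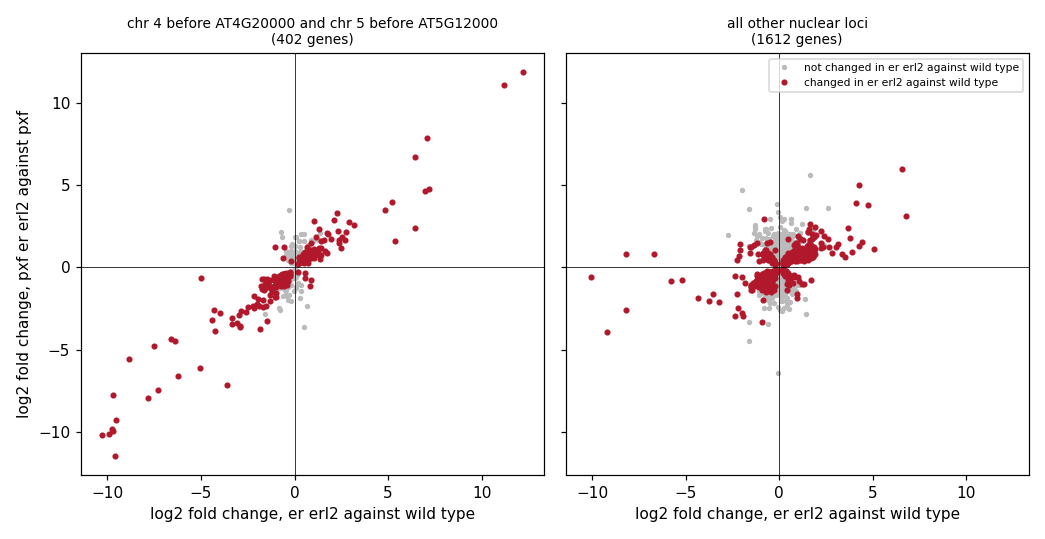
Genes changed in pxf er erl2 against pxf, by their log2 fold change there (vertical axis) and in er erl2 against wild type (horizontal axis), for the upper parts of chromosomes 4 and 5 (left) and all other nuclear loci (right); red dots are also changed in er erl2 against wild type. The largest changes lie near the diagonal on the left, and the right panel holds genes with opposite signs as well.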

How the data were processed

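Raw read counts for each gene were deposited by the authors, with a file for each library. Per the submitters' processing notes, HISAT2 2.0.5, featureCounts 1.5.0-p3 and TAIR10 were used; strand and the treatment of shared reads are not given in the sources used here. Library totals ranged from 10507590 to 14716123. The files hold 32833 loci, 32548 of them in the reference gene table (assembly TAIR10.1), used for names and gene order only. The analysis used edgeR 4.0.16 (R 4.3.3). Its filterByExpr kept 19236 loci holding 99.9% of counts, libraries were TMM-scaled, and a robust quasi-likelihood model with a term per genotype was fitted to all 12 libraries (biological coefficient of variation 11.6%). The interaction subtracts the log2 fold change of er erl2 against wild type from that of pxf er erl2 against pxf. In data simulated for pxf er erl2 against pxf (19031 genes), 82% of genes changed by log2 1 and 99% of those changed by log2 2 were recovered. There were 16 false calls among the unchanged genes. The changed genes averaged at least 1 CPM, and the simulation did not imitate the libraries that stand apart. Recovery of scarcer genes was not tested. A fold against no counts is a bound against 3 counts over the group.

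The members and lists were chosen with earlier results of these data known. Of 503 genes on 24 lists 495 were matched and 425 tested. Named genes are the 6 receptor genes, the 10 largest rises and falls among changed genes of at least 1 CPM without overlap, the same among genes with a symbol outside runs, and up to 6 changed members per list by size; others were chosen after their values were seen. Alternatives were other scalings, no filter, the compared groups alone, DESeq2 1.42.0, replicates as blocks, a 2-fold minimum and leaving out libraries; leaving out both libraries that stand apart, and the list counts without single libraries, were added after seeing the data. A gene that the naming rule takes in is not reported here.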

Additional observations from a re-analysis of the deposited data

Results flagged for a closer look

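In edgeR's interaction test over all 19236 genes, 35 of the 104 tested named genes passed at an adjusted p under 0.05. Over all genes 9.45% passed. Most named genes were chosen for their change in pxf er erl2 against pxf, which enters the interaction. Their share and the signs below therefore follow in part from that choice. For the 35 the log2 fold change with the er erl2 mutations differed between the pxf background and the wild-type background. The values below are that difference on the log2 scale (pxf er erl2 against pxf, minus er erl2 against wild type). Among the receptors it was -0.74 for ER and 1.27 for PXY. It was negative for 4 cambium regulators, with STM at -1.13, T5L1 at -1.06, TMO5 at -0.89 and CNA at -0.52.

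The same sign held for the xylem regulators WRKY12 (-1.56) and VND5 (-1.13) and the laccase LAC17 (-0.75), for CDT1A (-0.88), and for the auxin genes IAA30 (-1.41), IAA19 (-1.24), IAA5 (-0.86) and IAA17 (-0.85). ARR7 (-0.60), VSP1 (-1.15), RCA (-0.94), KCS20 (-0.93), XTH16 (-1.05), CYP707A2 (-2.81), FAF2 (-2.67), PEP7 (-1.92) and CYP79F1 (-3.63) were negative as well. PXY, LAC17, VSP1, RCA, KCS20 and CYP79F1 rose in both backgrounds, and ER, XTH16 and PEP7 fell in both, so for these the difference is one of size.

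The difference was positive for the phloem genes FTIP1 (1.07), HA3 (0.77) and PP2-A1 (0.59), and for FAR1 (0.88). It was also positive for the wall genes EXPA14 (2.75) and XTH27 (0.46), for the glucosinolate genes MAM3 (3.99) and CYP81F2 (1.65), and for SBT4.12 (3.81), BGLU27 (5.21), BOR5 (3.47) and AT7SL-1 (1.69). AT7SL-1 fell in both backgrounds, by 2.62 in pxf er erl2 against pxf and by 4.30 in er erl2 against wild type.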

How the results depend on the processing

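The 2016 changed genes became 85 with a 2-fold minimum and 442 in the compared groups alone with a replicate block; leaving out 1 library gave 1192 to 2244. The other settings gave 1363 (compared groups alone) to 2280 (DESeq2). The interaction was called for 1119 to 1747 genes when 1 library was left out. The 3 runs became 1 with windows of 50 genes and 5 with a limit of 4-fold. Relative log expression (RLE) scaling in edgeR put 51.3% of the changed genes higher, against 48.4%, and DESeq2 itself 53.2%. The scalings in edgeR moved the median of all genes by at most 0.011. Replicate numbers did not pair the samples: deviations of same-numbered libraries correlated at 0.19, -0.37 and -0.28. With the numbers as a block over all 12 libraries 1728 genes changed, and 17 of the 102 named and called genes lost their call. In the compared groups alone with the block 54 of them lost it. Of those 102, 35 passed the 2-fold minimum. Under the other alternatives 42 kept their call throughout and 60 lost it under at least 1, with none reversed; the cause was not tested. The depth left ERL2 and PXL1 untested.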

Other observations

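Beyond the lists above, families were read from the product names of the reference gene table after the data had been seen. Only some of the families read are described here. Of 315 genes named ribosomal protein, 51 fell and 2 rose, against 5.41% and 5.07% of all genes, with a median log2 fold change of -0.13. Leaving out 1 library gave 15 to 51 lower ones. Of 24 aquaporins, the water channels of cell membranes, 7 rose, against 5.07% of all genes, with a median log2 fold change of 0.36. PIP2A, of the plasma membrane, was at 581, 586 and 495 CPM in pxf er erl2, against 289, 250 and 279 CPM in pxf. The groups are far apart (log2 1.02 ± 0.07, SE, n = 3 per group; edgeR adjusted p = 2.3e-06), and PIP2A rose in er erl2 against wild type too (0.77). RD28 (0.58), PIP2B (0.56), PIP1A (0.48), PIP1B (0.42), PIP3 (0.29) and NIP1;2 (0.83) were the others. Reads may be shared between near-identical family members. The aquaporins called higher numbered 5 without pxf er erl2 replicate 1 and 9 without pxf er erl2 replicate 3.

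Of 29 SAUR genes, small genes that auxin induces early, 6 fell, against 5.41% of all genes, with a median log2 fold change of -0.35. AT3G12830 was at 11.5, 9.20 and 11.6 CPM in pxf er erl2, against 24.4, 24.2 and 22.5 CPM in pxf. Both groups are tight and do not overlap (log2 -1.14 ± 0.10, edgeR adjusted p = 2.0e-05), and its change in er erl2 against wild type was -0.21. Leaving out 1 library gave 5 or 6 lower SAUR genes. Of 30 subtilases, proteases of the cell wall space to which SBT4.12 belongs, 6 rose and 3 fell, against 5.07% and 5.41% of all genes.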
